A study of Mus musculus with 6 samples.

Results

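Phase II enzymes are the conjugating and hydrolysing enzymes that follow or replace oxidation in the handling of drugs, plant compounds, steroids and reactive lipids. They were measured here in the colon of mice lacking Hdac2, which encodes histone deacetylase 2, in the intestinal epithelium. The members were all probe sets whose platform annotation gave 1 gene symbol of the UDP-glucuronosyltransferase (Ugt1, Ugt2), sulfotransferase (Sult1 to Sult6), arylamine N-acetyltransferase (Nat1, Nat2), glutathione S-transferase (cytosolic Gst classes, kappa class Gstk, microsomal Mgst), carboxylesterase (Ces1, Ces2) or epoxide hydrolase (Ephx) families. These were 76 of the 45101 probe sets on the array, for 61 of 18193 genes. The rule selects by name alone, but it was chosen with earlier results of these data known.

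The HDAC2 KO group held 3 colon samples of mice with a floxed Hdac2 allele and a villin-Cre transgene, and the control group held 3 colon samples labelled control or normal. The villin promoter drives Cre in epithelial cells along the intestine, so other cells of the colon keep the gene. The alleles carried by the control mice and the ages are not given in the sources used here, the strain background mixed CD-1, 129 and C57BL/6, and no mouse was treated. The label of each sample carries the number of 1 mouse, but whether the sample holds RNA of that mouse alone was not tested. The labels of the HDAC2 KO samples name HDAC2 in the title and genotype but HDAC1/2 in the description, and they name both epithelium and colon as the source. Each sample was hybridised to 1 Affymetrix array, and the values are the authors' RMA signals on the log2 scale, so a difference of 1 is a doubling.

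Hdac2 itself read 10.21, 10.12 and 10.24 in HDAC2 KO, against 10.40, 10.37 and 10.43 in control (limma adjusted p = 0.00893), and where its probes lie relative to the deleted part was not analysed here. Hdac1, its close relative, read 10.47, 10.41 and 10.52 in HDAC2 KO, against 10.35, 10.29 and 10.31 in control (adjusted p = 0.0321, called in 8 of 16 alternative analyses). The sex-linked genes differed between the groups: Xist read 11.52 to 11.56 in HDAC2 KO, against 11.99 to 12.04 in control, and the Y-linked Eif2s3y read 7.89 to 8.32 in HDAC2 KO, against 7.48 to 7.56 in control. Xist and Eif2s3y signals stood side by side on every array, and no label mentions pooling of mice. Whether the arrays hold pooled mice of both sexes was not tested. The mix of sexes may differ between the groups, so the arrays cannot be taken as individual mice with certainty. Several of these enzyme families differ between the sexes in mouse liver, and the part of sex-linked RNA in the results below was not tested. Markers of absorptive colonocytes were present on all arrays, with 7 of 12 called higher and 0 lower, where 9.68% of all genes tested were higher. Their summed linear signal was 81184 to 83384 in HDAC2 KO, against 68365 to 69199 in control.

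As background, glucuronidation and sulfation make small molecules more soluble by attaching glucuronic acid from UDP-glucuronic acid or a sulfo group from PAPS. Glutathione transferases join glutathione to electrophiles such as lipid aldehydes, carboxylesterases cleave esters including stored triacylglycerol, and epoxide hydrolases open epoxides. In the gut these enzymes sit mainly in the absorptive epithelium, where they meet food compounds and bacterial metabolites, while the same families also act in liver and, for some carboxylesterases, in fat.

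Promoters are shown for members of the Ugt2 and Ces1 gene clusters, because genes of the same cluster differed in response. Each window runs from 250 bases before to 50 bases after the annotated start, 5′ to 3′ on the gene's strand, in RefSeq's GRCm38.p6. Ugt2b5, which rose, its neighbour Ugt2b36 and the more distant Ugt2b34, both not called, lie on the minus strand of chromosome 5 at chr5:87140291-87140590, chr5:87092506-87092805 and chr5:86906888-86907187. Capitals mark the longest run that Ugt2b5 and Ugt2b36 share.
Ugt2b5: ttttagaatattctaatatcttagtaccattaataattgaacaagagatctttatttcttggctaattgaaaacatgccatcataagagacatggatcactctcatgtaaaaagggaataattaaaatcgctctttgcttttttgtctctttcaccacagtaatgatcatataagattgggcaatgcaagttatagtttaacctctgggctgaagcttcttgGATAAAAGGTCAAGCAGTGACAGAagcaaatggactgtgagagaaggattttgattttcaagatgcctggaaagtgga
Ugt2b36: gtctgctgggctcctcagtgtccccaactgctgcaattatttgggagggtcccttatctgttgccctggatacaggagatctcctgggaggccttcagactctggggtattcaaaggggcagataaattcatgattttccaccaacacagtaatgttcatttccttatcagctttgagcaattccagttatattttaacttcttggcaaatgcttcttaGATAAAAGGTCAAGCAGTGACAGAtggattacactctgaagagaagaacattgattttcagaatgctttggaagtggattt
Ugt2b34: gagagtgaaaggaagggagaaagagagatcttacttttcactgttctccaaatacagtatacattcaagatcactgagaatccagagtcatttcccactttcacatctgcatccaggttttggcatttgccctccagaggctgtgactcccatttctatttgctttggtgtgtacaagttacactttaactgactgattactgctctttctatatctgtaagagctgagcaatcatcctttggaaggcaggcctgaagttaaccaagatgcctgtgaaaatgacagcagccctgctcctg
The shared run is 24 bases long and begins 28 bases before the start of Ugt2b5 and 31 bases before that of Ugt2b36. It was found in 3 of 32851 promoter windows, the third being that of Ugt2b37, whose signal was near the low end of the array in both groups. Over the 300 bases, 67.3% were identical in a global alignment of Ugt2b5 with Ugt2b36, and 60.3% in one of Ugt2b5 with Ugt2b34. Ugt2b36 with Ugt2b34 gave 58%. Unrelated windows were not aligned, so these shares have no baseline.

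The carboxylesterase genes Ces1g, which rose, and Ces1c, which fell in the fit without a signal filter, lie on the minus strand of the Ces1 cluster of chromosome 8 at chr8:93337160-93337459 and chr8:93131234-93131533. Capitals mark a match to a motif of CDX2, an intestinal homeobox factor.
Ces1g: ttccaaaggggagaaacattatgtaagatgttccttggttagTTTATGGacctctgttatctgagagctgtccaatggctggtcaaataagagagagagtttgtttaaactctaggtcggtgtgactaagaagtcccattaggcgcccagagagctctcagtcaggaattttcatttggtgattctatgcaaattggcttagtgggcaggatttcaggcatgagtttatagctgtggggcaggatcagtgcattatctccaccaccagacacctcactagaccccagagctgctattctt
Ces1c: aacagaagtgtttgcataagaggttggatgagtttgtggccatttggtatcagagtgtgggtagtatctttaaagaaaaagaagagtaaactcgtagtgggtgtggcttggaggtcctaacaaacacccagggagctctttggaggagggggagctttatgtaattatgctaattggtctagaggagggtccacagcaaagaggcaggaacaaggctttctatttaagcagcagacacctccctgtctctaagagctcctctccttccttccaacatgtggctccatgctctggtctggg
Their windows shared 63.7% of bases in alignment, again without a baseline from unrelated windows. Motifs were searched on both strands over the 64 windows of the 51 members with an entry, and a match is only a description. The CDX2 letters TTTATGG were in the windows of Ces1g and Gstm6, 3.12% of member windows against 2.75% of all windows. The antioxidant response element core TGACNNNGC, to which NRF2 binds, was in 4 member windows (Gsta3, Gstm5, Gstm7 and Mgst1), 6.25% against 12.4% of all windows. The HNF4 letters CAAAGTCCA were in 1 member window, that of Sult1b1, 1.56% against 0.475% of all windows. The xenobiotic response element core GCGTG, bound by the aryl hydrocarbon receptor, was in 12 member windows, 18.8% against 32.4% of all windows. Matches to different motifs overlapped in 1 member window, between the antioxidant and xenobiotic response elements.

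The design asked how deletion of Hdac2 in the intestinal epithelium changes colon RNA. Among these enzymes the differences were uneven. Within the Ugt2, Sult1, Ces1 and Ces2 families some genes rose or fell while others were not called. Few cytosolic glutathione transferases were called. A gene was represented by its probe set of highest mean, and 38 of the 61 genes had a mean over all 6 arrays at or above the 40th percentile, a log2 signal of 6.66, and were tested. None of the 38 passed with a group mean under that level (0 genes). With limma and Benjamini-Hochberg adjustment over all 10916 genes tested, 12 of the 38 were called at an adjusted p under 0.05, or 31.6%, where 17.9% of all genes tested were called. Higher in HDAC2 KO were 7 genes, or 18.4% against 9.68% of all genes, and lower were 5, or 13.2% against 8.2%. These shares of all genes tested also apply to each family and list counted below. The median difference of the 38 was -0.04 on the log2 scale and 0.00 over all genes tested, and the median size of the difference was 0.09 and 0.07. The count of lower genes was 3 without control replicate 1.

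**Figure D1:**
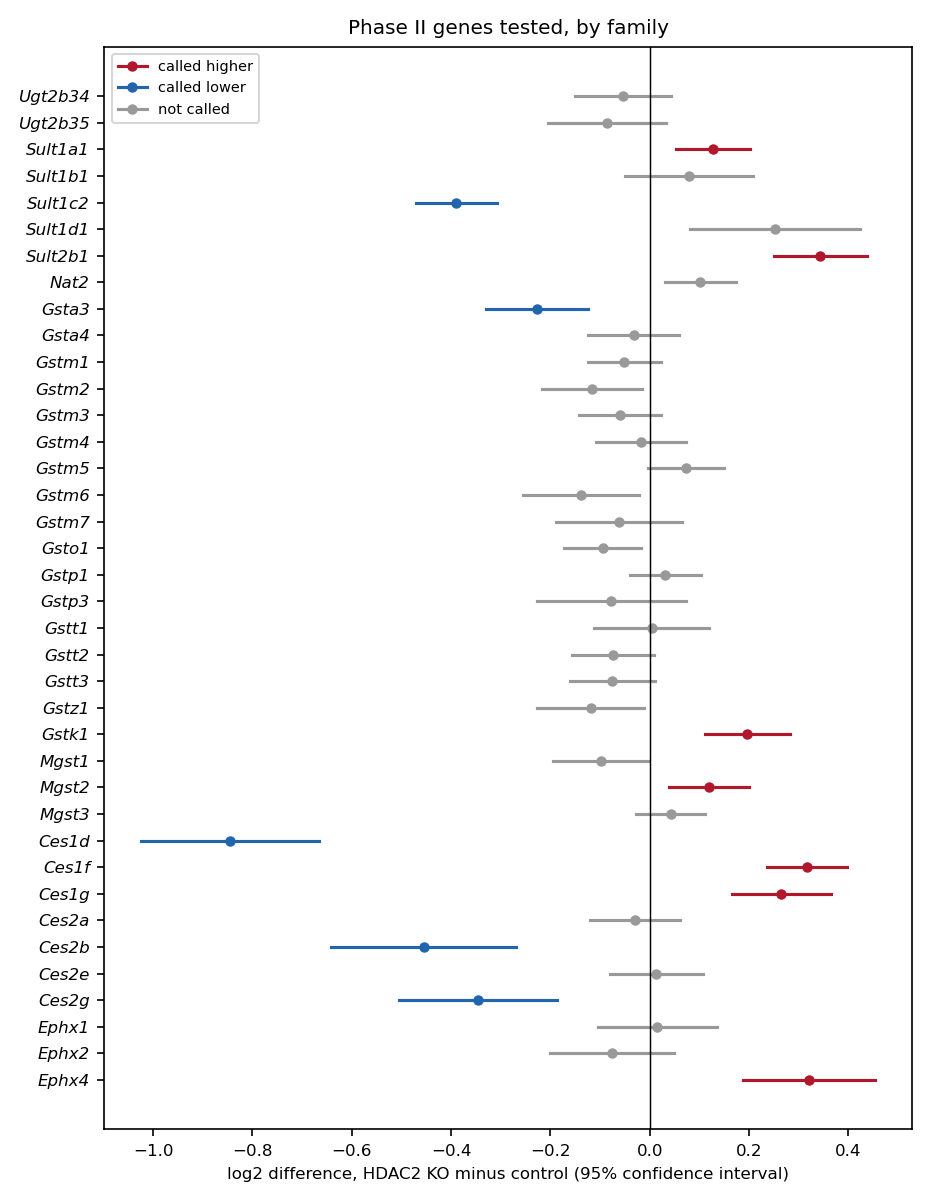
Log2 difference, HDAC2 KO minus control, of each of the 38 genes tested, with its 95% confidence interval from limma, ordered by family. The 7 genes called higher and 5 called lower are coloured, and Ces1d lies farthest from 0 at -0.85, while the intervals of the 26 other genes lie between -0.26 and 0.42.

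In bulk samples, fewer cells of a type and less RNA per cell cannot be told apart, which holds for every difference below. The remaining 23 genes lay under the signal level and were examined in a fit without a signal filter, where 7.62% of 18193 genes were called, 3.88% higher and 3.74% lower. Of these 23, Ugt2b5 and Sult1e1 were called higher and Ces1c lower, and the other 20 differed by -0.24 to 0.32. The 23 were Ces1c, Ces1e, Ces1h, Ces2f, Ephx3, Gsta2, Gsto2, Gstt4, Nat1, Sult1c1, Sult1e1, Sult2a2, Sult2a8, Sult3a1, Sult4a1, Sult5a1, Sult6b1, Ugt2a3, Ugt2b1, Ugt2b5, Ugt2b36, Ugt2b37 and Ugt2b38.

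Among the glucuronosyltransferases, Ugt2b5 showed the widest separation of any member. UGT2B enzymes sit in the endoplasmic reticulum and conjugate steroids, fatty acids and drugs. Ugt2b5 read 7.32, 7.27 and 7.44 in HDAC2 KO, against 5.50, 5.65 and 5.32 in control. All 3 HDAC2 KO arrays lay above all control arrays, by far more than the spread within either group. The difference was 1.85 (SE 0.089), or 3.62-fold, with a limma adjusted p of 5.35e-05 in the fit without a signal filter, and the gene was called in 14 of 14 alternatives to that fit. Its control level lay under the signal filter.

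No other Ugt2 member was called. Ugt2b34 read 12.53, 12.40 and 12.50 in HDAC2 KO, against 12.55, 12.51 and 12.52 in control, and the groups overlapped. Its difference was -0.05 (95% interval -0.15 to 0.04; adjusted p = 0.433), while its other probe set stood at 0.13 (adjusted p = 0.481 over all probe sets), so the direction rested on the probe set. Ugt2b35 differed by -0.09 (95% interval -0.21 to 0.03). Ugt2b36, the annotated neighbour of Ugt2b5 whose promoter shares the capital run above, differed by 0.13 (adjusted p = 0.272 without a filter), and Ugt2a3 by 0.32 (adjusted p = 0.232 without a filter). The group means of Ugt2a3, Ugt2b1, Ugt2b37 and Ugt2b38 were 3.03 to 4.11. Such values lie near the low end of the array, where a change may not be readable.

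No Ugt1 probe set carried 1 symbol alone, since the UGT1A genes share their last exons, and 0 Ugt1 genes were members. The 3 probe sets listing several Ugt1a genes differed by -0.05, -0.04 and -0.02, with adjusted p values of 0.653 to 0.895 over all probe sets. Of 5 tested genes that make, carry or use UDP-sugars or cleave glucuronides, 1 was called: Slc35d1, which carries UDP-glucuronic acid into the endoplasmic reticulum, read 9.23 on average in HDAC2 KO and 8.81 in control, 1.34-fold higher (adjusted p = 0.00129). Ugdh, the enzyme that makes the donor, differed by 0.09 and was not called.

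Sulfotransferases moved in both directions, with 2 of 5 tested genes higher and 1 lower, where 9.68% of all genes tested were higher and 8.2% lower. Sult2b1, which sulfates cholesterol and other hydroxysteroids, read 9.49, 9.41 and 9.36 in HDAC2 KO, against 9.09, 9.08 and 9.07 in control. The groups were far apart, and the gene was 1.27-fold higher (difference 0.34, SE 0.040, adjusted p = 0.000909). Sult1c2, a cytosolic sulfotransferase of the phenol class, went the other way, with 10.26, 10.19 and 10.25 in HDAC2 KO, against 10.63, 10.65 and 10.59 in control. That is 1.31-fold lower (difference -0.39, SE 0.035, adjusted p = 0.000248). Both calls held in 16 of 16 alternatives.

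The cytosolic phenol sulfotransferase gene Sult1a1 read 12.71, 12.72 and 12.68 in HDAC2 KO, against 12.59, 12.60 and 12.55 in control. The groups did not overlap, but the difference was small at 0.13 (SE 0.032, adjusted p = 0.0316), and it was called in 5 of 15 alternatives and in none (0) of the 6 fits that left out an array. Sult1d1, which sulfates catecholamines in mice, read 12.47, 12.29 and 12.57 in HDAC2 KO, against 12.18, 12.11 and 12.28 in control. Its difference of 0.25 (95% interval 0.08 to 0.42) just missed the threshold (adjusted p = 0.0512), and a fit that paired arrays by replicate number (a replicate block) gave 0.0112. With that block 17.8% of all genes tested were called. Its other probe set stood at a like value of 0.26. Sult1b1, a sulfotransferase of phenols and thyroid hormones, differed by 0.08 (95% interval -0.05 to 0.21) and was not called.

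Sult1e1, the estrogen sulfotransferase, lies beside Sult1d1 on chromosome 5 and read 4.38, 4.42 and 4.43 in HDAC2 KO, against 4.12, 4.16 and 4.12 in control. These are values near the low end of the array, and the difference of 0.28 (adjusted p = 0.00638 without a filter) is a small change in a faint signal. The sulfo donor PAPS is made by Papss1 and Papss2, which were called in opposite directions. Papss1 was 1.15-fold lower (adjusted p = 0.00801) and Papss2 1.09-fold higher (adjusted p = 0.0292, called in 8 of 16 alternatives). Of the 7 tested genes of PAPS supply and sulfatases, 2 were higher and 1 lower, the further call being Slc35b3, a Golgi PAPS carrier (1.09-fold, adjusted p = 0.0422, called in 6 of 16 alternatives).

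Of the arylamine acetyltransferases, Nat2 read 9.78, 9.79 and 9.75 in HDAC2 KO, against 9.67, 9.67 and 9.69 in control. The arrays separated, yet the difference of 0.10 (95% interval 0.03 to 0.17) had an adjusted p of 0.0590. Nat1 lay under the filter and differed by 0.28 (adjusted p = 0.105 without a filter).

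**Figure D2:**
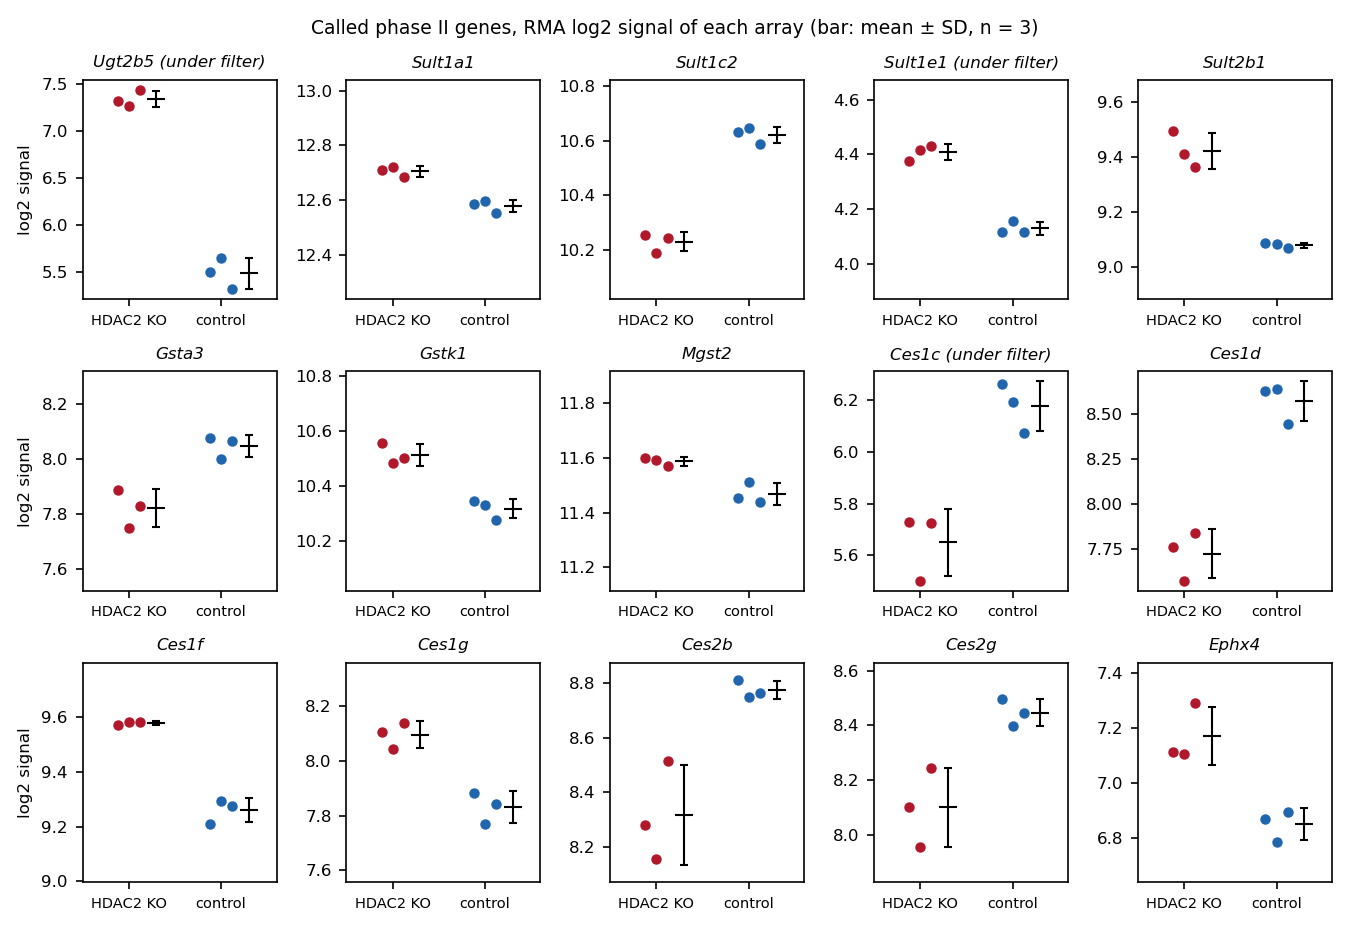
RMA log2 signal (vertical axes, each with its own range) on each of 3 HDAC2 KO and 3 control arrays for the 15 genes called, 12 in the filtered fit and 3, marked as under filter, in the fit without one. Points are arrays and the bar is the mean ± SD. Ugt2b5 has the widest gap. In all 15 panels the groups do not overlap, but the genes were picked by their calls, which favour such a gap. Of all genes tested in the filtered fit, 37.7% had groups that did not overlap.

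Few cytosolic glutathione transferases were called. Of 16 tested genes, 1 was lower and 0 were higher, a called share of 6.25% against 17.9% of all genes tested. The median difference was -0.07, with 13 of the 16 below 0, and the median size was 0.074, beside 0.065 over all genes tested. Groups did not overlap for 8 of the 16, beside 37.7% of all genes tested. An unadjusted limma p under 0.05 was found for 5 of the 16, and for 3444 of all 10916 genes tested. Gsta3, an alpha class enzyme that in mice conjugates the epoxide of aflatoxin, read 7.89, 7.75 and 7.83 in HDAC2 KO, against 8.08, 8.0 and 8.07 in control. The groups did not overlap, and the gene was 1.17-fold lower (difference -0.23, SE 0.044, adjusted p = 0.0102), a call lost without control replicate 1 (adjusted p = 0.0509) and in the fit over all probe sets (0.0765), where 3.8% of probe sets were called. Its other, dimmer probe set stood at -0.08. A probe set listing several Gsta genes, which was no member, stood at 0.20, 1.15-fold higher with groups that did not overlap (adjusted p = 0.111 over all probe sets).

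Gsta4, which clears the lipid aldehyde 4-hydroxynonenal, read 11.24, 11.18 and 11.13 in HDAC2 KO, against 11.21, 11.25 and 11.18 in control, and differed by -0.03 (95% interval -0.12 to 0.06). All 7 mu class genes, which lie side by side on chromosome 3, were tested and 0 were called by limma, 2 having an unadjusted p under 0.05, with differences from -0.14 for Gstm6 to 0.07 for Gstm5. The 4 probe sets of Gstm1 agree within their error, at -0.07 to -0.05. The probe sets that stand for Gstm1, Gstm3 and Gstm6 have probes that may match more than 1 transcript. Their signals may therefore include other mu class transcripts.

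Gstp1, the pi class enzyme of many epithelia, read 13.42, 13.41 and 13.43 in HDAC2 KO, against 13.40, 13.38 and 13.39 in control, a difference of 0.03 (95% interval -0.04 to 0.10), and Gstp3 differed by -0.08. Of the theta class, Gstt1, Gstt2 and Gstt3 differed by 0.00, -0.07 and -0.08. Gstz1, the maleylacetoacetate isomerase of tyrosine breakdown, differed by -0.12 (adjusted p = 0.124). Gsto1, an omega class enzyme that can reduce dehydroascorbate, stood at -0.10 (adjusted p = 0.0878) on its main probe set. Its other probe set, whose probes may match more than 1 transcript, read 12.22, 11.79 and 12.28 in HDAC2 KO, against 12.48, 12.47 and 12.61 in control, a difference of -0.42 (adjusted p = 0.14 over all probe sets). HDAC2 KO replicate 2 was well below the other arrays there.

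Organelle-bound glutathione transferases were led by Gstk1, the kappa class enzyme of mitochondria and peroxisomes. Gstk1 read 10.56, 10.48 and 10.50 in HDAC2 KO, against 10.34, 10.33 and 10.28 in control. It was 1.15-fold higher (difference 0.20, SE 0.037, adjusted p = 0.00869), and the call was lost over all probe sets (adjusted p = 0.0824). The membrane enzyme gene Mgst2, whose product can also form leukotriene C4, read 11.60, 11.59 and 11.57 in HDAC2 KO, against 11.45, 11.51 and 11.44 in control. At 1.09-fold it was barely called (difference 0.12, SE 0.035, adjusted p = 0.0490), and it was not called in the replicate block fit (adjusted p = 0.0594) or without any 1 array. Mgst1 and Mgst3 differed by -0.10 and 0.04 and were not called.

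Of 9 tested genes that make and recycle glutathione, 0 were called by limma and 1 had an unadjusted p under 0.05, with Gclc and Gclm, the subunits of the rate-limiting enzyme, differing by 0.03 and -0.05. Of 11 NRF2 targets outside these families, 4 were higher and 1 lower, where 9.68% of all genes tested were higher and 8.2% lower. Akr1b8, an aldo-keto reductase, was 1.36-fold higher (adjusted p = 0.000265), and Taldo1 and Srxn1 were 1.13-fold and 1.16-fold higher (adjusted p = 0.0102 and 0.0128). Cbr3, a carbonyl reductase, was 1.37-fold lower (adjusted p = 9.39e-05).

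**Figure D3:**
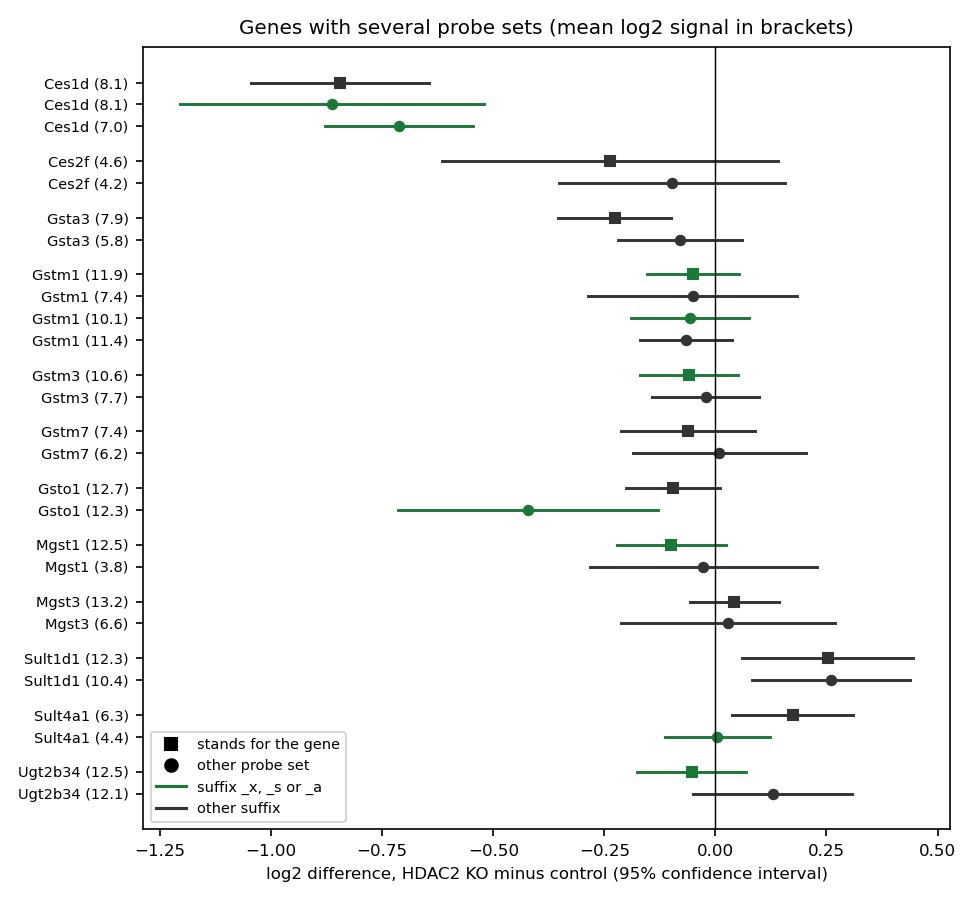
Log2 difference, HDAC2 KO minus control, with its 95% confidence interval from the fit over all probe sets, for the 12 genes with several probe sets; squares are the probe sets that stand for a gene, and green marks suffixes of probe sets whose probes may match more than 1 transcript. The 3 Ces1d probe sets lie together between -0.86 and -0.71, whereas those of Gsto1 (-0.10 and -0.42) and Ugt2b34 (-0.05 and 0.13) lie apart.

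Of 7 tested carboxylesterases 5 were called, 2 higher and 3 lower, where 17.9% of all genes tested were called, and the Ces1 cluster split. Ces1d, a triacylglycerol hydrolase of liver and fat, read 7.76, 7.57 and 7.84 in HDAC2 KO, against 8.63, 8.64 and 8.44 in control. Every HDAC2 KO array lay below every control array, and the gene was 1.80-fold lower (difference -0.85, SE 0.078, adjusted p = 0.000256). Its other 2 probe sets gave -0.86 and -0.71 (adjusted p = 0.0205 and 0.00197 over all probe sets). Ces1c, which in mice encodes the carboxylesterase secreted into plasma, lay under the filter and read 5.73, 5.50 and 5.72 in HDAC2 KO, against 6.26, 6.19 and 6.08 in control (difference -0.53, adjusted p = 0.00829 without a filter).

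Adipocyte markers fell on the same arrays. Of 8 tested genes of that list, 7 were lower and 0 higher, with Adipoq, the hormone adiponectin, 8.13-fold lower and Fabp4, which binds fatty acids in fat cells, 4.35-fold lower (adjusted p = 5.87e-09 and 1.95e-07). The summed linear signal of the 10 matched markers was 5133 to 5477 in HDAC2 KO, against 17015 to 17774 in control, with Lep and Cidec under the filter in the mean of all arrays. Lipe, the hormone-sensitive lipase of fat, was 1.34-fold lower (adjusted p = 0.0126). The part of fat tissue in the falls of Ces1d and Ces1c was not tested.

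**Figure D4:**
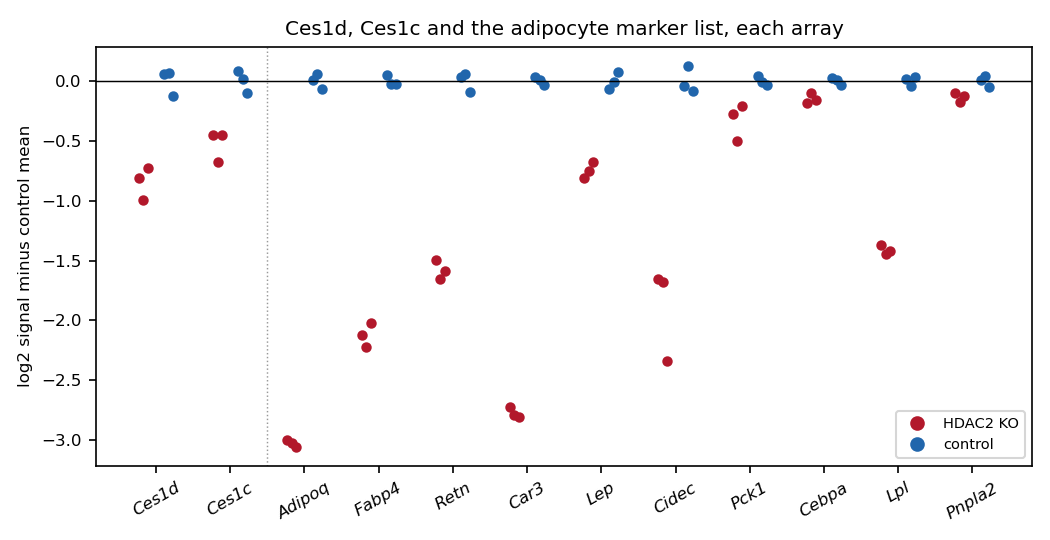
Log2 signal of each array minus the control mean (vertical axis) for Ces1d, Ces1c and the 10 adipocyte markers matched, red for HDAC2 KO and blue for control. The HDAC2 KO arrays of Ces1d and Ces1c lie below the control arrays, as do those of the 10 markers, whose drop is largest for Adipoq at -3.02.

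Ces1f and Ces1g, farther along the cluster, were higher. Ces1f, also a lipid ester hydrolase, read 9.57, 9.58 and 9.58 in HDAC2 KO, against 9.21, 9.29 and 9.28 in control. The 3 HDAC2 KO arrays were almost level, and the gene was higher by 0.32 on the log2 scale (SE 0.035, adjusted p = 0.000671). Its only probe set has probes that may match more than 1 transcript, so another Ces1 transcript may add to it. Ces1g, a carboxylesterase linked to lipid handling in mouse liver, read 8.11, 8.04 and 8.14 in HDAC2 KO, against 7.88, 7.77 and 7.84 in control, 1.20-fold higher (difference 0.26, SE 0.043, adjusted p = 0.00464). Ces1e, between Ces1d and Ces1f, and Ces1h lay under the filter and differed by 0.04 and 0.03.

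In the Ces2 cluster, whose enzymes cleave ester drugs and acylglycerols in gut and liver, 2 of 4 tested genes fell. Over all genes tested, 8.2% were lower. Ces2b read 8.28, 8.16 and 8.51 in HDAC2 KO, against 8.81, 8.75 and 8.76 in control. The HDAC2 KO arrays were spread more widely but all lay lower, 1.37-fold on average (difference -0.46, SE 0.081, adjusted p = 0.00680). Ces2g read 8.10, 7.96 and 8.25 in HDAC2 KO, against 8.50, 8.40 and 8.45 in control, 1.27-fold lower (difference -0.35, SE 0.069, adjusted p = 0.0115), a call lost without control replicate 1 (adjusted p = 0.0513) and over all probe sets (0.0607). In both genes HDAC2 KO replicate 2 was lowest and replicate 3 highest.

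Ces2a and Ces2e showed no such fall. Ces2a read 10.49, 10.40 and 10.47 in HDAC2 KO, against 10.47, 10.53 and 10.44 in control, a difference of -0.03 (95% interval -0.12 to 0.06). Ces2e differed by 0.01 (95% interval -0.08 to 0.11).

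**Figure D5:**
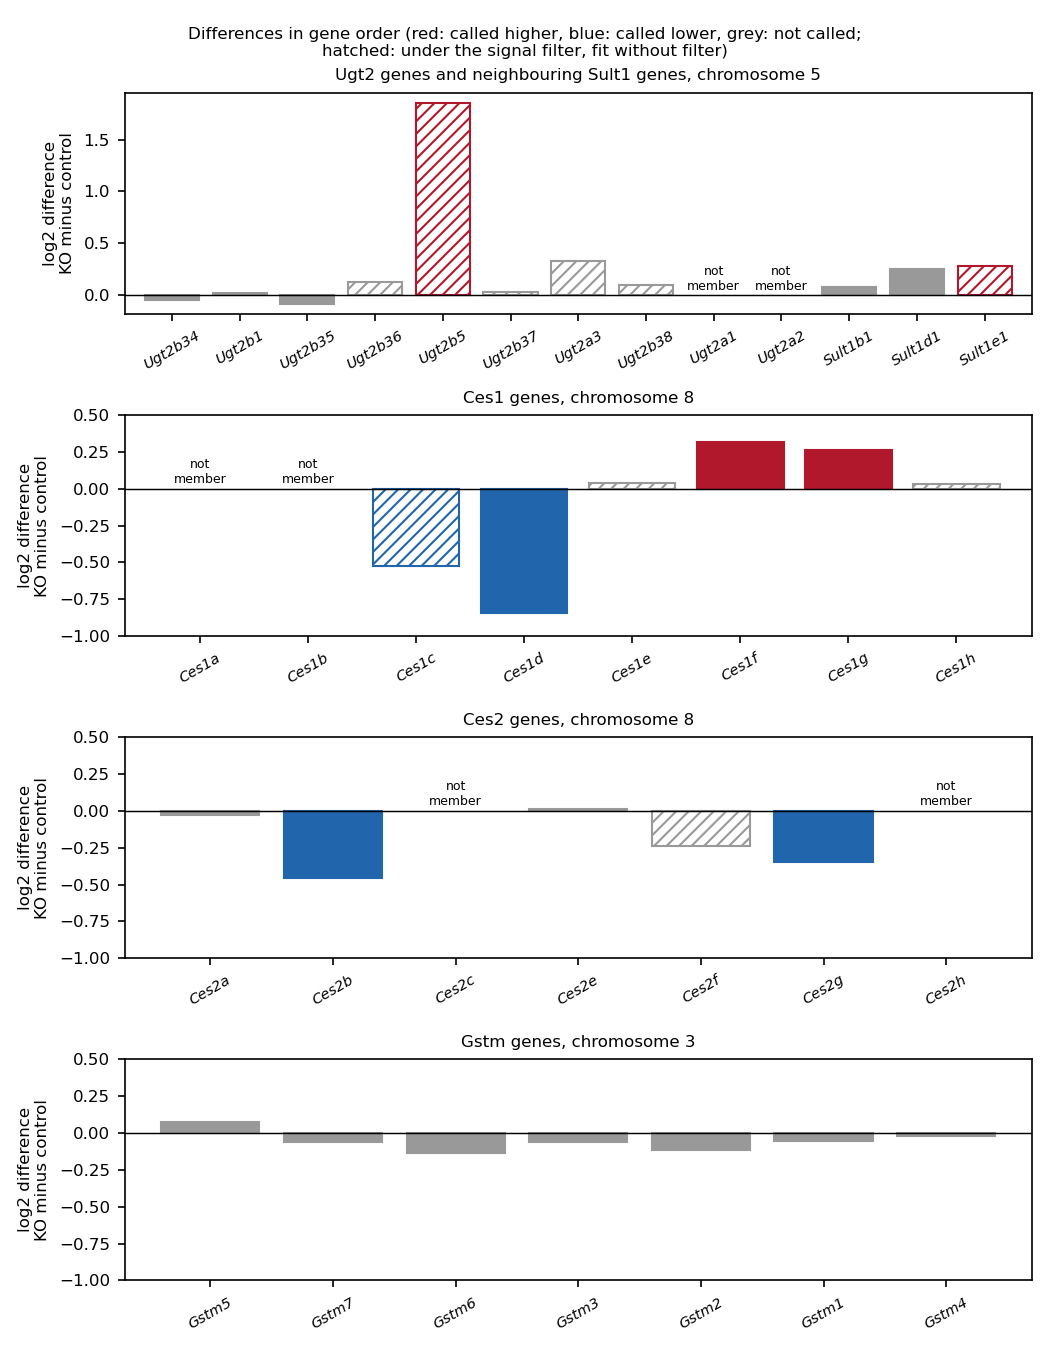
Log2 difference, HDAC2 KO minus control (vertical axes), of each gene in its order along the chromosome for the Ugt2 genes with the adjoining Sult1 genes, and for the Ces1, Ces2 and Gstm genes; hatched bars are genes under the signal filter. Ugt2b5 (1.85) stands among bars between -0.09 and 0.32, the Ces1 bars run from -0.85 to 0.32, and the Gstm bars from -0.14 to 0.07.

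Other esterases and hydrolases gave 2 higher and 2 lower of 7 tested, where 17.9% of all genes tested were called. Aadac, the arylacetamide deacetylase of the endoplasmic reticulum, was 1.26-fold higher (adjusted p = 0.000651). The paraoxonase family gene Pon2 was 1.14-fold higher (adjusted p = 0.0285, called in 8 of 16 alternatives) and Pon3 1.15-fold lower (adjusted p = 0.02). Among 4 tested genes of other conjugating enzymes, the thiopurine methyltransferase gene Tpmt was 1.36-fold higher (adjusted p = 0.000508), and Inmt, an indolethylamine methyltransferase, 1.85-fold lower (adjusted p = 0.00401). Tpmt was called in 15 of 16 alternatives, and its largest adjusted p was 0.588. The probe set that stands for Tpmt has probes that may match more than 1 transcript. Of 8 tested genes with a glutathione-binding or related fold, Clic4 was 1.12-fold higher, and Clic6 and Alox5ap were 1.15-fold and 1.12-fold lower (adjusted p = 0.00933, 0.00625 and 0.0426), the call of Alox5ap holding in 8 of 16 alternatives.

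Of the epoxide hydrolases, 1 of 3 tested was called. Ephx4, a family member of less known substrates, read 7.11, 7.11 and 7.29 in HDAC2 KO, against 6.87, 6.78 and 6.89 in control, higher by 0.32 on the log2 scale (SE 0.058, adjusted p = 0.00706). The signals lay just above the filter level, and the groups did not overlap. Ephx1, the microsomal enzyme of xenobiotic epoxides, differed by 0.02 (95% interval -0.10 to 0.13), and Ephx2, the soluble enzyme of fatty acid epoxides, by -0.08 (95% interval -0.20 to 0.05).

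Of 14 tested regulators of drug metabolism, which are transcription factors and the NRF2 inhibitor Keap1, 4 were called, 3 higher and 1 lower. The called share of all genes tested was 17.9%, with 9.68% higher and 8.2% lower. Cdx2, the intestinal identity factor, was 1.15-fold higher (adjusted p = 0.00360), the nuclear receptor gene Pparg 1.28-fold (0.00854) and the bile acid receptor gene Nr1h4 1.15-fold (0.00669), while the glucocorticoid receptor gene Nr3c1 was 1.11-fold lower (0.0490, called in 6 of 16 alternatives). Nfe2l2, which encodes NRF2, Ahr and Nr1i2, the pregnane X receptor, differed by 0.02, -0.04 and -0.01 and were not called. Of 6 tested efflux transporters that export conjugates and drugs, 2 were higher and 0 lower, Abcb1a by 1.22-fold (adjusted p = 0.00172) and Abcg2 by 1.12-fold (adjusted p = 0.0148).

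Markers of several cell types differed as well. All 4 tested small intestinal enterocyte markers rose, among them Apoa4 (4.5-fold, adjusted p = 1.05e-06), Apoa1 and Fabp2, and the summed linear signal of that list was 8267 to 8393 in HDAC2 KO, against 4061 to 4270 in control, with Fabp1, Lct and Anpep under the filter. Of 3 tested hepatocyte markers 1 was higher (Cps1) and 2 lower (Ttr and Apob). Alb and Fgb, defining hepatocyte genes, lay under the filter. In the fit without a filter Alb was 1.53-fold lower (adjusted p = 0.00672), and Fgb differed by -0.11 (adjusted p = 0.745). Goblet cell markers were called by limma in 0 of 6 cases, 2 having an unadjusted p under 0.05. B cell and plasma cell markers were lower in 5 of 5 tested cases, and mast cell markers in 2 of 3, macrophage markers in 2 of 5, endothelial markers in 3 of 4 and fibroblast markers in 1 of 6, while 3 of 6 smooth muscle markers were higher. Over all genes tested, 9.68% were higher and 8.2% lower. T cell markers were lower in 2 of 3 tested cases, Cd3d by 2.59-fold (adjusted p = 6.4e-06) and Cd3e by 1.20-fold (adjusted p = 0.0447, but 0.0977 with the replicate block). The part of these cell types in the differences above was not tested.

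The members varied between arrays about as other genes did. The median SD within a group over the 38 genes was 0.055 in HDAC2 KO and 0.037 in control, beside 0.051 and 0.043 over all genes tested. HDAC2 KO replicate 2 was the lowest of its group for 21 of the 38 genes, or 55.3%, beside 47.5% of all genes tested. For 22 of the 38 genes the groups did not overlap, or 57.9%, where 37.7% of all genes tested did not.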

How the data were processed

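Gene expression was measured on 6 one-colour Affymetrix mouse arrays, 3 HDAC2 KO and 3 control colon samples, grouped by their titles. The deposited log2 values were made by the authors with RMA (background correction, quantile normalization, summary per probe set), as the submitters' processing notes record without a version. That the scale is log2 was taken from the values, 2.39 to 14.6 with array medians of 6.17 to 6.21. Quantile normalization hides changes in total RNA, and scan batches were not analysed here. The number of arrays limits the precision.

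In the platform annotation, dated 2016, 34945 probe sets had 1 symbol, 932 several and 9160 none listed, and 64 array controls were left out. All 61 member genes matched RefSeq (GRCm38.p6) by Entrez identifier with the same symbol, and that table gave only names and gene order.

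The probe set of highest mean stood for a gene, and genes at or above the 40th percentile were tested in R 4.3.3 by the linear models of limma 3.58.1 (lmFit and eBayes on group alone) and adjusted by Benjamini-Hochberg. Every adjusted p is from limma. The fit was tested on simulated data. Marker sums add the linear signals of a list. All members are accounted for; of each other gene list, up to 4 called genes of smallest p are named, and a few uncalled genes were named after their values were seen. Members and lists were chosen with earlier results of these data known. Alternatives covered filter, probe sets, normalization, variance model, weights, replicate block, each array left out and thresholds. Per gene, the alternatives counted are fits, without the changed thresholds.

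Same-numbered arrays correlated in their deviations from the group means with r of 0.20 to 0.34, other arrays of different groups with r of -0.37 to 0.18. The replicate numbers come from the titles, which do not say that arrays are paired. That same-numbered arrays share variation was seen only in the data. The pairing enters only the fit with the replicate block.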

Additional observations from a re-analysis of the deposited data

How the results depend on the processing

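Ces1d, Ces1f, Ces1g, Ces2b, Sult1c2, Sult2b1 and Ephx4 were called in the same direction in each of the 15 or 16 alternative fits that could test them, at the same threshold. Of member genes called higher in HDAC2 KO, 1 (Sult2b1) passed a minimum size of 0.322 on the log2 scale, which Ces1f, Ces1g and Ephx4 missed. Of member genes called lower in HDAC2 KO, there were 11 with array weights, 3 with the filter at the 60th percentile and 3 at an adjusted p under 0.01. With 1 array left out, 5 to 6 were higher and 3 to 6 lower, the 3 being without control replicate 1. Of all genes called, 1952 in the analysis reported, there were 1943 with the replicate block, 3506 with array weights, 954 at an adjusted p under 0.01, 521 with the minimum size, and 1130 to 2107 with 1 array left out, including 1274, 1130 and 1276 without HDAC2 KO replicate 1, control replicate 1 and control replicate 2. Of member calls, the replicate block changed those of Mgst2 and Sult1d1 only. The direction turned in 5 of the 38 tested genes and in 10 of the 23 genes under the filter, all uncalled. The difference of Ces2e ran from -0.019 to 0.045 with 1 array left out. The difference of Ephx1 was -0.011 with array weights and ran from -0.043 to 0.050 with 1 array left out. The difference of Gstm4 was 0.024 with array weights and ran from -0.040 to 0.011 with 1 array left out. The difference of Gstt1 was -0.046 with array weights and ran from -0.034 to 0.039 with 1 array left out. The difference of Ugt2b34 was 0.037 as the mean of its probe sets and 0.13 on its other probe set. The cause was not tested. The fits of Ugt2b5, Ces1c and Sult1e1 under alternatives without a filter were chosen after seeing the data.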
